A study of Rattus norvegicus with 172 samples.

Results

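The comparison set the liver response to the highest dose of furan beside the liver response to the highest dose of 3-methylfuran, and asked for each gene whether the responses were unequal. It rested on 31 of the 70 male Fischer 344 rats in the study. These were 8 controls and 7 rats at 2.0 mg/kg body weight per day of furan, and 8 controls and 8 rats at 1.0 mg/kg body weight per day of 3-methylfuran. For each gene the log2 fold change of furan 2.0 over the furan controls was taken, and the log2 fold change of 3-methylfuran 1.0 over the 3-methylfuran controls was subtracted from it. This quantity is called the difference below. A positive difference means that the gene stood higher, relative to its own controls, with furan, and a negative one that it stood higher with 3-methylfuran. All 11885 genes expressed in both experiments were tested.

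Poly(A) RNA of flash-frozen liver was sequenced after 90 days on diets that carried furan, 3-methylfuran or no compound. The rats used in the comparison carried no genetic change that the labels name, and each was a separate animal. No source used here gives their ages. The dose of furan was larger than that of 3-methylfuran, the libraries of the compounds were made with different Illumina stranded mRNA kits, and each compound had its own controls. Compound, dose, kit and experiment cannot be told apart in any difference reported here. The labels describe all controls alike, so the rat number in each sample's title, matched to the columns of the count tables, placed a control in its experiment.

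Furan is a volatile heterocycle formed when food is heated, and 3-methylfuran differs from it by a methyl group on the ring. Both are oxidised in hepatocytes by cytochrome P450 enzymes, for furan chiefly Cyp2e1, to reactive dialdehydes that bind glutathione and protein thiols. In rats furan is known for hepatocyte injury, for regenerative cell division, and for bile duct proliferation with fibrosis.

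Total counts per rat lay between 13970556 and 18383386 in the furan controls and between 15981021 and 20045323 at furan 2.0. The 3-methylfuran controls held 11084613 to 18877945 counts and the rats at 3-methylfuran 1.0 held 12806865 to 24258605. Hepatocyte markers made up most of the marker signal in all 31 rats, with summed levels from 115200 to 252300 CPM (the rat's counts scaled to a common total) and 0 of the 10 listed markers were at 0. The furan 2.0 rats did not form one group. For matrix, collagen, stellate cell and cholangiocyte genes, rats ME081, ME082, ME083 and ME085 stood apart from rats ME086, ME089 and ME092, which lay near the controls. The sets were told apart by these levels themselves, so the direction in which matrix counts moved when a set was left out was fixed by that choice and is given as a description. For the gene lists, the number of called members is given without the first 4 of these rats and, in a separate fit, without the other 3. The first of these fits keeps 3 furan 2.0 rats. A call can be lost there through fewer animals while the size of the difference holds.

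The difference was called for 933 genes, or 7.85% of those tested, at an adjusted p under 0.05 (edgeR quasi-likelihood F test, Benjamini-Hochberg over all genes). Higher with furan were 4.59% of all genes tested, and lower were 387 genes (3.26%). The difference reached 1.5-fold in 482 of the called genes, 2-fold in 229 (164 higher and 65 lower) and 4-fold in 40 (30 higher and 10 lower). The split between higher and lower calls depended on the scaling. With DESeq2 size factors in the same test 47.4% of 895 called genes were higher, and with TMM factors computed within each experiment 50.1% of 893, beside 58.5% in the fit used here. Over all genes the effects of the compounds ran together, with a Pearson r of 0.70 and a Spearman rho of 0.66 across 11885 genes, which are not independent replicates.

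Each compound changed far more genes against its own controls than the comparison between them did. Furan 2.0 changed 5851 genes, 49.2% of those tested, with 3122 higher (26.3%) and 2729 lower (23%). For 3-methylfuran 1.0 the count was 5225, or 44%, with 2517 higher (21.2%) and 2708 lower (22.8%). Most called differences came from genes that passed the test with only one of the compounds. Of the 933 genes, 268 rose with furan and were not called with 3-methylfuran, and 170 fell with furan alone. A further 167 fell with 3-methylfuran alone and 108 rose with it alone. In 52 genes both compounds raised the level to an unequal extent and in 70 both lowered it. Opposite changes were found in 92 genes, of which 51 rose with furan and fell with 3-methylfuran and 41 did the reverse. In the remaining 6 neither effect alone was called.

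**Figure D1:**
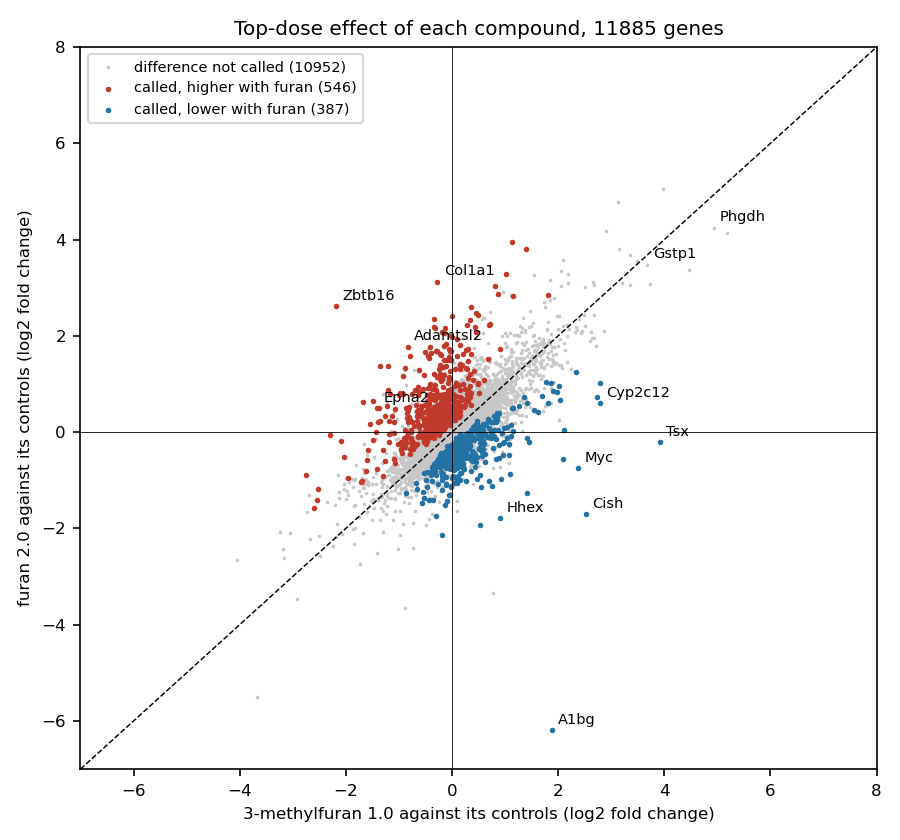
Log2 fold change at 3-methylfuran 1.0 over its controls (x axis) against log2 fold change at furan 2.0 over its controls (y axis), 1 point per gene for 11885 genes; the dashed line marks equal effects. The genes called higher with furan (red) lie above the line, the 387 called lower (blue) below it, and genes raised strongly by both compounds, such as Phgdh and Gstp1, lie near it.

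Because each effect is taken from its own controls, a gene can differ through the dosed groups, the controls or both. In 426 of the 933 called genes (45.7%) the mean levels of the control groups lay further apart than those of the dosed groups, beside 50.6% of all genes tested. Among called genes with a difference of at least 2-fold the number was 56 of 229 (24.5%), and among genes with opposite changes 34 of 92. The deviations of the 7 furan rats from their control mean did not overlap those of the 8 3-methylfuran rats in 435 of the called genes (46.6%), beside 5.0% of all genes. Between the lowest doses, furan 0.03 and 3-methylfuran 0.02 mg/kg body weight per day, with the same controls, 66 genes (0.555%) were called.

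The difference was largest among higher genes for Zbtb16 (ENSRNOG00000029980), a zinc finger transcription factor that glucocorticoids raise. Its level was 4.09 to 11.5 CPM in the furan controls (median 5.56) and 28.6 to 44.8 CPM at furan 2.0 (median 40.8). In the 3-methylfuran controls it was 3.14 to 44.3 CPM (median 21.6), and at 3-methylfuran 1.0 it was 3.08 to 6.59 CPM (median 4.27). The furan groups did not overlap, while the 3-methylfuran controls spanned both ranges. The difference was 4.81 ± 0.74 (log2, SE; 95% interval 3.32 to 6.30; edgeR adjusted p = 3.18e-05), made of a rise of 2.62 ± 0.52 with furan and a fall of 2.19 ± 0.53 with 3-methylfuran. At the lowest doses the difference was already 3.37 ± 0.73, and with the lowest-dose groups as baseline in place of the controls it was 1.43 (adjusted p = 0.285).

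Klf13 (ENSRNOG00000015822), a Krüppel-like transcription factor that glucocorticoids also raise, followed the same course at lower levels. It stood at 1.88 to 3.79 CPM in the furan controls (median 2.73) and 4.20 to 5.85 CPM at furan 2.0 (median 4.85). Its level was 1.88 to 4.92 CPM in the 3-methylfuran controls (median 3.29) and 1.00 to 1.98 CPM at 3-methylfuran 1.0 (median 1.43). All 7 furan rats lay above their control mean and 0 of the 8 3-methylfuran rats above theirs. Non-overlap of these deviations was among the rules by which Klf13 was named. The difference was 1.95 ± 0.28 (edgeR adjusted p = 1.02e-05), and that between the lowest doses 1.5 ± 0.28. With the lowest-dose groups as baseline 0.45 remained (adjusted p = 0.395). Both genes kept their call in all 31 fits that left out 1 rat each.

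Fkbp5 (ENSRNOG00000022523), an immunophilin that holds back the glucocorticoid receptor and is a standard readout of its activity, rose with furan alone. It ranged from 10.7 to 14.8 CPM in the furan controls (median 12.4) and from 28.3 to 57.8 CPM at furan 2.0 (median 40.9). Its range was 12.1 to 27.1 CPM in the 3-methylfuran controls (median 19) and 14.9 to 19 CPM at 3-methylfuran 1.0 (median 17.4). The difference of 1.93 ± 0.42 (edgeR adjusted p = 0.00213) was 0.83 (adjusted p = 0.261) with the lowest-dose baseline. Among 23 glucocorticoid responsive genes tested, the median difference was -0.09 beside 0.02 over all genes. Of these, 3 were called higher and 2 lower, 21.7% in all beside 7.85% of all genes. The lower ones were Gadd45g, a stress-induced growth arrest gene (-2.45 ± 0.68), and Errfi1, an inhibitor of the epidermal growth factor receptor (-0.83 ± 0.25). Both fell with furan alone. The list was chosen with results of these data known, and its members moved in both directions; 2 were called without the 4 furan rats named above and 7 without the other 3.

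In other genes, too, the difference was called at the lowest doses. Lpin1 (ENSRNOG00000004377), a phosphatidate phosphatase of glyceride synthesis, stood at 62.6 to 268 CPM in the furan controls (median 110) and at 126 to 197 CPM at furan 2.0 (median 178). Its 3-methylfuran control levels were 88.0 to 210 CPM (median 129) and those at 3-methylfuran 1.0 were 37.9 to 62 CPM (median 47.1). Only the 3-methylfuran groups were apart. The difference was 1.73 ± 0.39, but 2.29 ± 0.39 at the lowest doses, and its sign turned to -0.56 with the lowest-dose baseline. At furan 0.03 the Lpin1 median was 397 CPM, above every other group. The deubiquitinase gene Usp2, a clock output, differed by 1.58 ± 0.32 at the top doses and 1.44 ± 0.31 at the lowest. The interleukin 6 receptor gene Il6r differed by 1.16 ± 0.23 and 1.05 ± 0.22, and the glycolytic regulator Pfkfb1 by 1.29 ± 0.22 and 0.89 ± 0.21. No source used here gives the time of day at which each rat was killed.

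A second set of higher genes showed little gap at the lowest doses. Adamtsl2 (ENSRNOG00000027742), which encodes a microfibril-associated matrix protein, was at 2.69 to 9.30 CPM in the furan controls (median 7.11) and at 8.32 to 53.1 CPM at furan 2.0 (median 16.2). It was at 7.12 to 10.7 CPM in the 3-methylfuran controls (median 9.68) and at 4.19 to 7.06 CPM at 3-methylfuran 1.0 (median 5.0). The highest furan rats reached levels seen in no other group of the comparison. The difference was 2.61 ± 0.38 (edgeR adjusted p = 1.08e-05), 2.01 with the lowest-dose baseline (adjusted p = 0.00131) and 1.34 without rats ME081, ME082, ME083 and ME085 (adjusted p = 0.0248). At the lowest doses it was 0.60 ± 0.38 (adjusted p = 0.670).

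Epha2 (ENSRNOG00000009222), an ephrin receptor tyrosine kinase, fell with 3-methylfuran and was not called with furan. It lay between 12.8 and 35.1 CPM in the furan controls (median 22.3) and between 16.8 and 41.7 CPM at furan 2.0 (median 34.8), which overlap. The 3-methylfuran controls lay between 28.6 and 56.6 CPM (median 52.7) and the dosed rats between 13.6 and 21.8 CPM (median 18.4), without overlap. Its medians across 3-methylfuran doses were 52.7, 34.0, 28.7 and 18.4 CPM. The difference was 1.92 ± 0.31 (edgeR adjusted p = 6e-05) and kept its call with the lowest-dose baseline (1.45) and without the 4 rats (1.70). Spry4, a feedback inhibitor of receptor tyrosine kinase signalling, differed by 1.44 ± 0.33 through a rise of 1.22 ± 0.23 with furan, and it too was called in both of those fits (1.53 in each).

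**Figure D2:**
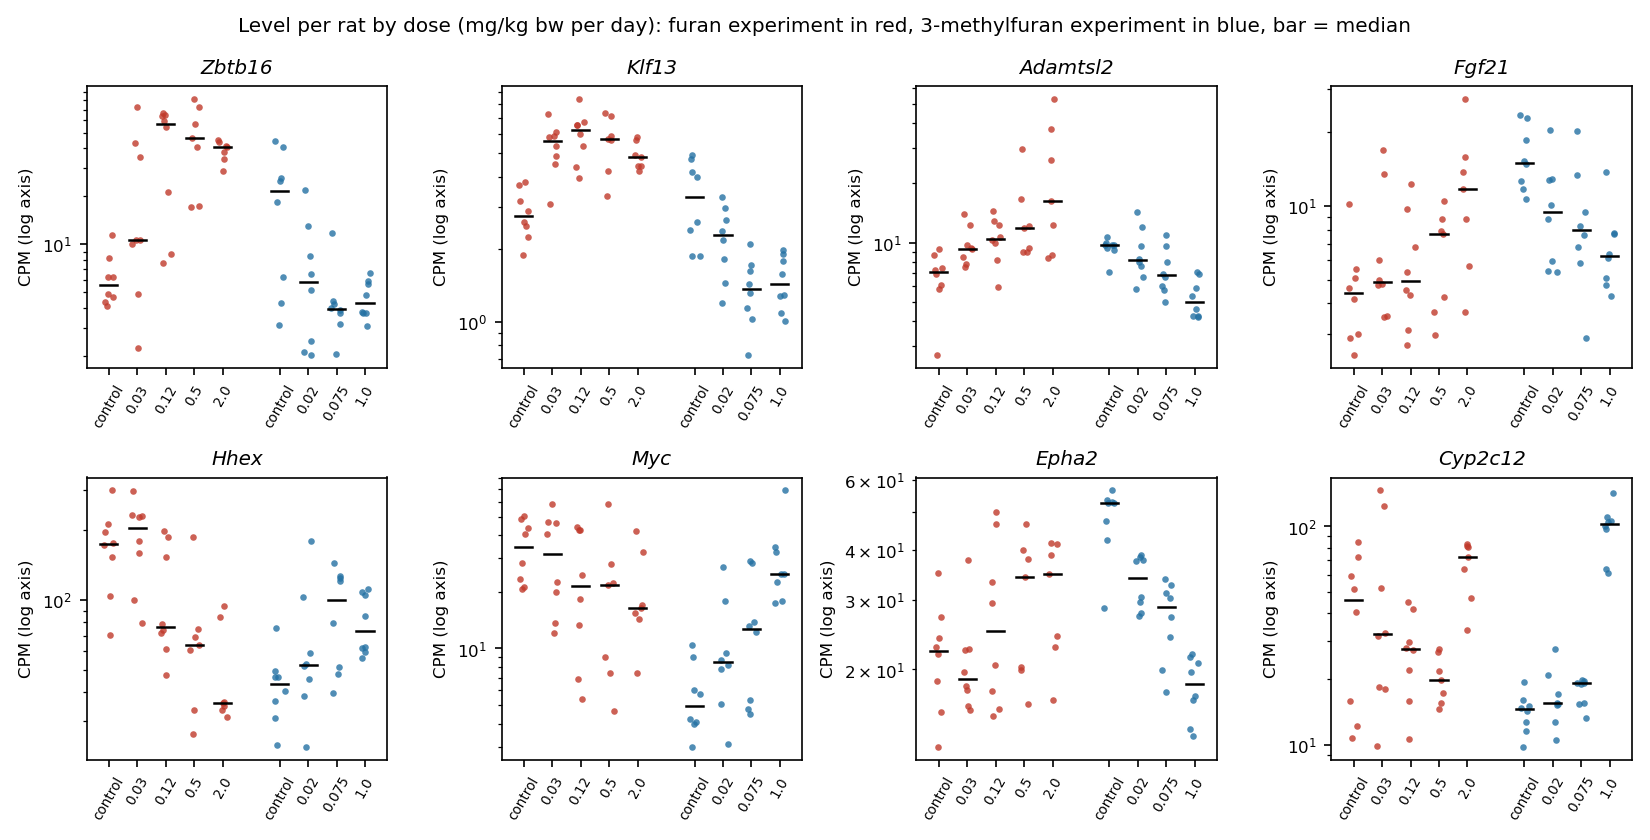
Level in CPM (log axis) of 8 genes in each of the 70 rats, by dose in mg/kg body weight per day; furan experiment in red, 3-methylfuran experiment in blue, bars are medians. For Zbtb16 and Klf13 the medians of the dosed furan groups lie above and those of the dosed 3-methylfuran groups below their own control median, with single rats of the lowest doses overlapping, Adamtsl2 and Fgf21 move in opposite directions, and Hhex and Myc start from control levels that differ between the experiments.

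S100a6, Tspan8 and Cpxm1 also stood higher with furan. The calcium-binding protein gene S100a6 differed by 2.48 ± 0.51, the tetraspanin gene Tspan8 by 2.02 ± 0.46 and the carboxypeptidase-like gene Cpxm1 by 1.98 ± 0.55. All 7 furan rats lay above the control mean for each, and 3-methylfuran changed none of these genes past the threshold. S100a6, Tspan8 and Cpxm1 were picked among genes whose furan and 3-methylfuran deviations did not overlap. The agreement between rats thus follows in part from how these genes were picked. Without the 4 rats their differences were 0.68, 1.23 and 0.71, and each call was lost (edgeR adjusted p = 0.553, 0.189 and 0.613). Fmo2, a flavin monooxygenase, and Ablim3, an actin-binding protein gene, changed in opposite directions with differences of 1.80 ± 0.31 and 1.92 ± 0.38, and both kept their calls without those rats (1.38 and 1.93).

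Among the lower genes, Myc (ENSRNOG00000004500), the growth-promoting transcription factor gene, was raised by 3-methylfuran. It ranged from 20.6 to 50.3 CPM in the furan controls (median 34.4) and from 7.43 to 42.1 CPM at furan 2.0 (median 16.3). The 3-methylfuran controls held 3.01 to 10.5 CPM (median 4.98) and the dosed rats 17.5 to 68.9 CPM (median 24.9). The 3-methylfuran groups did not overlap, but the dosed rats of both compounds did, and the controls of the experiments were the groups furthest apart. The difference was -3.12 ± 0.66 (edgeR adjusted p = 0.00157), with 2.38 ± 0.48 for 3-methylfuran and -0.74 ± 0.44 for furan, the latter not called. It was -2.16 (adjusted p = 0.0396) with the lowest-dose baseline and -3.10 without the 4 rats.

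Hhex showed the same kind of gap between control groups on the furan side. Hhex (ENSRNOG00000016595), a homeobox gene of liver and bile duct development, was at 70.8 to 298 CPM in the furan controls (median 174) and at 31.2 to 94.4 CPM at furan 2.0 (median 36.0). It was at 23.6 to 75.4 CPM in the 3-methylfuran controls (median 43.4) and 56.0 to 112 CPM at 3-methylfuran 1.0 (median 73.8). Its difference was -2.69 ± 0.52, a fall of 1.79 ± 0.38 with furan and a rise of 0.90 ± 0.36 with 3-methylfuran. It remained called with the lowest-dose baseline (-2.15, edgeR adjusted p = 0.00936) and without the 4 rats (-2.62, adjusted p = 0.0225).

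Tsx (ENSRNOG00000002925), a testis-expressed gene, rose with 3-methylfuran alone. It lay at 0.0664 to 0.734 CPM in the furan controls (median 0.374), 0.0527 to 0.601 CPM at furan 2.0 (median 0.30) and 0 to 0.451 CPM in the 3-methylfuran controls (median 0.149). At 3-methylfuran 1.0 it lay at 0.423 to 6.45 CPM (median 3.56). The difference of -4.11 ± 0.72 came from low counts in 3 of the 4 groups. The ephrin receptor gene Epha4 rose with 3-methylfuran alone by 2.08 ± 0.34, with a difference of -2.64 ± 0.47. At the lowest doses its difference was -1.71 ± 0.48 (edgeR adjusted p = 0.0833).

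The lower genes with the smallest adjusted p had small but even differences. Magi3, a scaffold protein gene of cell junctions, differed by -1.10 ± 0.16 (edgeR adjusted p = 1.02e-05), Dennd4a, a Rab exchange factor gene, by -0.75 ± 0.11, and Tent2, a poly(A) polymerase gene, by -0.84 ± 0.13. For Magi3 the furan controls held 16.2 to 20.8 CPM (median 18.7) and the furan rats 13.2 to 17.4 CPM (median 14.6). The 3-methylfuran controls held 10.02 to 13.7 CPM (median 11.1) and the 3-methylfuran rats 16.6 to 23.1 CPM (median 20.0). All 8 3-methylfuran rats lay above their controls. The imprinted gene Mest (-1.55 ± 0.25), the exchange factor gene Spata13 (-0.85 ± 0.13) and the histone demethylase gene Kdm6a (-0.58 ± 0.09) completed this set. Apart from Spata13 (-0.36, adjusted p = 0.106), these 6 genes kept their calls with the lowest-dose baseline, and all 6 kept them without the 4 rats.

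Genes of growth hormone signalling and of sex-patterned liver expression held several of the largest lower differences. In rats the liver reads the pulse pattern of growth hormone through the kinase Jak2 and the transcription factor Stat5b, which binds palindromic sites of the form TTCNNNGAA and directs genes that differ between males and females. Of 24 listed genes tested, 0 were called higher and 4 lower (16.7%, beside 7.85% of all genes called and 3.26% called lower), with a median difference of -0.35. The count was 3 without the 4 furan rats, 12 without the other 3, 6 with the lowest-dose baseline and 3 to 7 when 1 rat was left out, with 7 without ME086 or without ME584. Over the list, furan lowered 17 and raised 0 (median -0.90), and 3-methylfuran lowered 14 and raised 4 (median -0.39). The promoters of Cish and A1bg are shown because these 2 called genes carry that site, from 250 bases before to 50 after the annotated start (RefSeq, GRCr8, both on the strand of the gene), with each match to TTCNNNGAA in capitals. The motif reads the same on both strands.
Cish, chr8:116850719-116851018, plus strand: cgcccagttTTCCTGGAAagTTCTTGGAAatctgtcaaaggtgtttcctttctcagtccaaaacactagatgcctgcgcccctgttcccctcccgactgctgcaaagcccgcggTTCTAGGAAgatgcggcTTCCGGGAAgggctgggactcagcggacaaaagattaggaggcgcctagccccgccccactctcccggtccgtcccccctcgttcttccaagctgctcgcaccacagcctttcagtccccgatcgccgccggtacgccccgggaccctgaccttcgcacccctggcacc
A1bg, chr7:94387447-94387746, minus strand: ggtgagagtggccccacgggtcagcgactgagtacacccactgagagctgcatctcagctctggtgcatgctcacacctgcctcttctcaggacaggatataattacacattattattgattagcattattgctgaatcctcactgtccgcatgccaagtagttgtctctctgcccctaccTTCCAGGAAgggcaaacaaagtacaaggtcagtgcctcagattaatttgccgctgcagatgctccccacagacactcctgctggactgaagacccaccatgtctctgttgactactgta
The Cish window held 4 matches and the A1bg window 1. That of Cyp2c12 held 0, and Onecut1 was not used here. At least 1 match was found in 8.56% of 24206 promoters of this length, in 6.80% of the 8233 promoters of tested genes, in 9.89% of 263 promoters of genes called lower and in 6.57% of 396 called higher. Of 19 promoters of tested genes on the growth hormone list, 2 held a match (10.5%), those of Cish and A1bg. A match is a run of letters, and binding was not measured.

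Cish (ENSRNOG00000029543), a feedback inhibitor of cytokine receptors that growth hormone induces within each pulse, varied widely within groups. It ranged from 4.82 to 59.0 CPM in the furan controls (median 36.6) and from 0.935 to 30.6 CPM at furan 2.0 (median 2.92). It ranged from 1.58 to 5.25 CPM in the 3-methylfuran controls (median 2.44) and from 1.17 to 38.1 CPM at 3-methylfuran 1.0 (median 9.79). The groups of each experiment overlapped, and the control medians lay further apart than the dosed ones. The difference was -4.23 ± 1.30 (edgeR adjusted p = 0.0331), and its call was lost with the lowest-dose baseline (-1.73, adjusted p = 0.447). Without the 4 rats the call was lost too, with fewer furan rats, while the size stayed close (-4.08, adjusted p = 0.182).

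A1bg (ENSRNOG00000004692), a plasma glycoprotein gene with female-biased expression in rat liver, had the largest absolute difference of the named genes, -8.07 ± 1.84. The furan controls ran from 0.385 to 58.6 CPM (median 21.8) and the furan rats from 0.0871 to 0.686 CPM (median 0.321). In the 3-methylfuran experiment the controls ran from 0 to 0.709 CPM (median 0.215) and the dosed rats from 0.212 to 1.67 CPM (median 0.833). High levels were thus present only among furan controls in the comparison. The size of this fold rests on groups with a few counts per rat. The fall of 6.19 ± 1.05 with furan was called and the 3-methylfuran effect of 1.88 ± 1.57 was not. Furan 0.5 gave a median of 0.404 CPM, and furan 0.03 spanned 0.543 to 135 CPM.

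Cyp2c12 (ENSRNOG00000047945), the female-predominant steroid hydroxylase of rat liver, was raised by 3-methylfuran. It stood at 10.8 to 85.1 CPM in the furan controls (median 46) and 33.6 to 82.8 CPM at furan 2.0 (median 72.8), which overlap. It stood at 9.82 to 19.5 CPM in the 3-methylfuran controls (median 14.6) and 61.2 to 142 CPM at 3-methylfuran 1.0 (median 103), which do not. The difference was -2.18 ± 0.51 (edgeR adjusted p = 0.00419) and was -2.27 both with the lowest-dose baseline and without the 4 rats. Onecut1, a hepatic transcription factor that growth hormone regulates, fell with furan and rose with 3-methylfuran, with a difference of -2.67 ± 0.78 (edgeR adjusted p = 0.0254) that was not called without the 4 rats (adjusted p = 0.150).

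Of the genes with opposite changes, Fgf21 (ENSRNOG00000020990), a fasting and stress hormone made by hepatocytes, was among the largest. It lay at 2.45 to 10.2 CPM in the furan controls (median 4.4) and 3.69 to 27.4 CPM at furan 2.0 (median 11.7). It lay at 10.7 to 23.5 CPM in the 3-methylfuran controls (median 15.0) and 4.30 to 13.8 CPM at 3-methylfuran 1.0 (median 6.24). The groups overlapped in both experiments. The difference was 2.59 ± 0.51 (edgeR adjusted p = 0.000831), and with the lowest-dose baseline it was 1.29 (adjusted p = 0.139). In the reverse orientation, Vgll4, a cofactor of TEAD transcription factors, fell by 1.11 ± 0.26 with furan and rose by 0.75 ± 0.28 with 3-methylfuran. Hnf4g, a nuclear receptor gene, had a difference of -1.44 ± 0.26 and the zinc finger gene Zfp385b one of -1.16 ± 0.26. All 7 furan rats lay below and all 8 3-methylfuran rats above their control mean for these 3 genes. Without the 4 rats the opposite class held 25 genes in place of 92, and with the lowest-dose baseline 55.

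Many matrix genes stood higher with furan. Extracellular matrix is laid down in liver mainly by activated stellate cells and portal fibroblasts, and lysyl oxidases, prolyl and lysyl hydroxylases and latent TGF-beta binding proteins shape it. Of 51 matrix and crosslinking genes tested, 18 were called higher with furan and 1 lower, 37.3% of the list beside 7.85% of all genes, with a median difference of 0.66. Furan raised 30 and lowered 4 of them, and 3-methylfuran raised 6 and lowered 13. Fibrillar and other collagens were called in 4 of 16, each higher, with a median of 0.68. In bulk liver, fewer or more cells of a type and less or more RNA per cell cannot be told apart.

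Col1a1 (ENSRNOG00000003897), the main fibrillar collagen chain, showed the split among furan rats. It was at 4.68 to 18.6 CPM in the furan controls (median 9.26) and at 8.59 to 182 CPM at furan 2.0 (median 83.8). It was at 4.72 to 8.50 CPM in the 3-methylfuran controls (median 6.89) and 3.17 to 9.57 CPM at 3-methylfuran 1.0 (median 4.89). The values in rats ME081, ME082, ME083 and ME085 were 182.5, 182.2, 83.79 and 105.9 CPM, and those in ME086, ME089 and ME092 were 11.59, 8.59 and 13.1 CPM, inside the control range. The difference was 3.40 ± 0.73 (edgeR adjusted p = 0.00198), and without rats ME081, ME082, ME083 and ME085 it was 0.46 (adjusted p = 0.802). The collagen VI genes Col6a1 and Col6a2, which form microfibrils around cells, differed by 1.18 ± 0.27 and 1.43 ± 0.32, and by 0.07 and 0.13 without these rats.

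Among the genes of matrix crosslinking and turnover, Lox, lysyl oxidase, was at 0.446 to 1.53 CPM in the furan controls (median 0.72) and 0.632 to 11.4 CPM at furan 2.0 (median 5.83), and it stayed at or below 1.29 CPM in all 3-methylfuran rats of the comparison. Its difference of 2.24 ± 0.73 became -0.58 without the 4 rats. Loxl1 (2.03 ± 0.60), the latent TGF-beta binding protein gene Ltbp2 (1.98 ± 0.44), the fibulin family gene Efemp1 (2.08 ± 0.64) and the protease inhibitor gene Timp1 (1.5 ± 0.41) were called, and none of these 4 was called without the 4 rats. Eln, elastin, differed by 1.77 ± 0.35 and, unlike them, changed in opposite directions. Of the 19 matrix genes called with all rats, only Adamtsl2 stayed called without the 4 rats. Without the 4 rats 2 matrix genes and 0 collagens were called, and without rats ME086, ME089 and ME092 instead, 30 and 10, a shift whose direction follows from how the rats were picked. Of the 19 matrix genes, 8 were called with the lowest-dose baseline and 8 in every fit that left out 1 rat, and without ME081 or without ME082 the count was 10.

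Markers of the cells that make matrix moved with these genes, and their part in the result was not tested. The lists share members, so their counts are not independent. Col1a1 stands on both the collagen and the stellate list, and Timp1, named above, is also a stellate call. Stellate and myofibroblast markers were called in 5 of 19 tested of 25 listed (26.3%, beside 7.85% of all genes), each higher. Among them were Vim (1.47 ± 0.35) and Cygb (1.37 ± 0.32). The summed level of the stellate markers was 360.1 to 515.2 CPM in the furan controls and 332.4 to 737.2 CPM at furan 2.0, beside 255.6 to 351.5 and 222.8 to 277.1 CPM in the 3-methylfuran controls and dosed rats, with 0 of 25 at 0. Cholangiocyte markers were called in 4 of 12 tested of 25 listed (33.3%). Krt7 (2.74 ± 0.82), Krt19 (2.16 ± 0.53) and the secretin receptor gene Sctr (1.54 ± 0.40) were higher and Onecut2 (-0.62 ± 0.14) lower. Furan raised 7 and lowered 4 of the 12 cholangiocyte markers, and their median difference was 0.03. Their summed level was 302.5 to 465.9 and 316.2 to 464.4 CPM in the furan groups and 199.8 to 333 and 202.4 to 307.3 CPM in the 3-methylfuran groups, with 0 of 25 at 0. Macrophage markers were called in 2 of 20, Lyz2 (2.69 ± 0.60) and Cd9 (1.33 ± 0.37); their sums ran from 568.7 to 1021 and 480.2 to 1215 CPM with furan and from 420.7 to 560 and 340.4 to 696.7 CPM with 3-methylfuran. Slc40a1 was at 0 in every rat of both furan groups. Without the 4 rats 0 stellate, 0 cholangiocyte and 0 macrophage markers were called, and without the other 3 the counts were 11, 4 and 4.

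As a median over the 51 matrix genes, the deviation from the control mean was 1.12 in rat ME081, 1.32 in ME082, 0.56 in ME083 and 0.91 in ME085 (log2). It was -0.11 in ME086, -0.15 in ME089 and -0.07 in ME092. The 8 rats at 3-methylfuran 1.0 lay between -0.23 and 0.08, and the furan controls between -0.23 and 0.33. The median over the 12 tested cholangiocyte markers split the same rats, at 1.32 to 1.65 in the first 4 and -0.10 to 0.23 in the other 3.

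**Figure D3:**
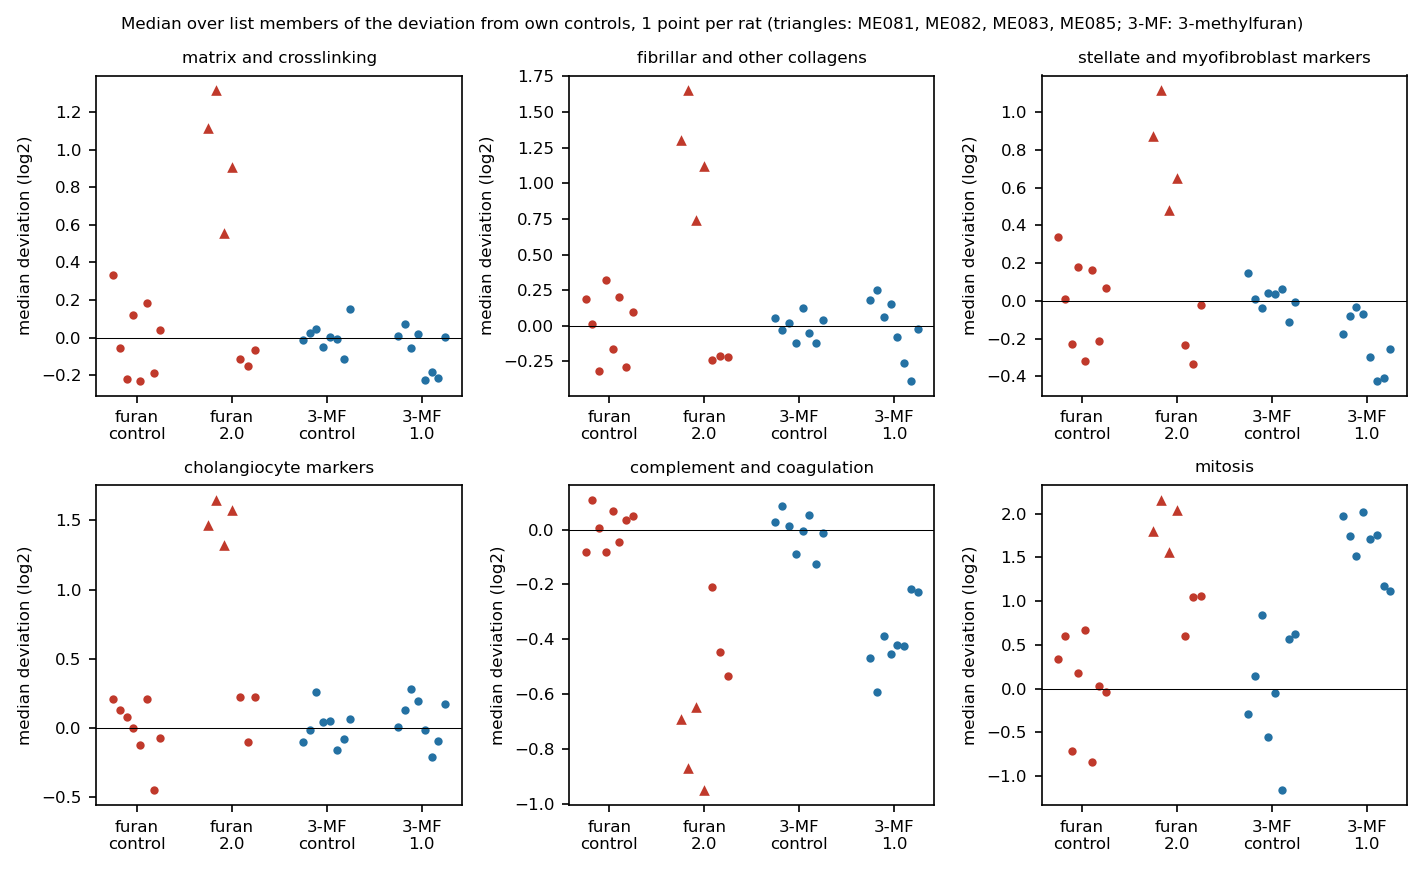
Median over the tested members of 6 gene lists of the log2 deviation from the mean of the rat's own control group, 1 point per rat; furan experiment in red, 3-methylfuran (3-MF) in blue, triangles mark rats ME081, ME082, ME083 and ME085. The triangles are the highest points for the matrix, collagen, stellate and cholangiocyte lists, and the other 3 furan 2.0 rats lie near the controls there, while for mitosis nearly all dosed rats of both compounds lie high.

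Notch signalling directs hepatoblasts to the bile duct lineage. Of 12 tested genes of Notch signalling and ductal fate, 5 were called, 2 higher and 3 lower (41.7%, beside 7.85% of all genes). Hes1, a Notch target gene, fell by 1.10 ± 0.22 with 3-methylfuran alone, with a difference of 1.31 ± 0.31 that was 1.21 ± 0.30 at the lowest doses. Heyl, another target gene, had a difference of 1.46 ± 0.32 (0.62 without the 4 rats, edgeR adjusted p = 0.361). The receptor gene Notch2 fell by 0.48 ± 0.08 with furan alone (difference -0.65 ± 0.12), and Onecut1 and Onecut2 were the other lower genes. Target genes and a receptor gene thus differed in opposite directions. The list had 2 calls without the 4 rats and 5 without the other 3.

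Most complement and coagulation genes, which the liver secretes, fell with each compound. Of 40 complement and coagulation genes tested, furan lowered 38 and 3-methylfuran 33, and neither raised any. The difference was called for 9, all lower, 22.5% of the list beside 7.85% of all genes called and 3.26% called lower, with a median of -0.19. C4bpa, a complement inhibitor chain, was at 733 to 915 CPM in the furan controls (median 856) and 485 to 814 CPM at furan 2.0 (median 645). It was at 755 to 962 CPM in the 3-methylfuran controls (median 881) and 865 to 1168 CPM at 3-methylfuran 1.0 (median 933). Its difference was -0.59 ± 0.13 (edgeR adjusted p = 0.00234). It fell with furan, and its 3-methylfuran effect of 0.20 ± 0.09 was not called. C4bpb, its partner chain (-0.59 ± 0.13), and the protease gene C1s (-0.47 ± 0.14) also fell with furan alone, whereas the prekallikrein gene Klkb1 (-0.43 ± 0.14) fell with both compounds, further with furan. Without the 4 rats 0 complement genes were called, and without the other 3 furan 2.0 rats 31 were. The count was 18 without ME086 alone and 4 without ME082 or without ME085.

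The acute phase list had 3 genes higher and 1 lower of 25 (16%, beside 7.85% of all genes). Its median difference was -0.22 and 7 of the 25 lay above 0. The count of calls was unstable, with 0 under the lowest-dose baseline, 1 without the 4 rats, 16 without the other 3 and 13 without ME086 alone. It was 2 without MC009, ME081, ME085 or MC510. The interleukin 6 receptor gene Il6r and the acute phase glycoprotein gene Orm1 (0.65 ± 0.21) fell with 3-methylfuran alone, while the transcription factor gene Stat3 (0.58 ± 0.16) rose with furan alone. Hpx, hemopexin, fell with both compounds (difference -0.40 ± 0.13). Hepatocyte markers had a median difference of -0.23, with 1 of 10, Apob (-0.39 ± 0.12), called, beside 0 without the 4 rats and 7 without the other 3. Sinusoidal endothelial markers were called in 1 of 21, Gata4 (-0.59 ± 0.17). T and NK cell, B and plasma cell, neutrophil, red blood cell and pancreatic acinar markers had 0 called of 10, 4, 2, 6 and 1 tested by edgeR, with 0, 1, 1, 0 and 1 at an unadjusted p under 0.05 and 0, 0, 0, 0 and 1 called by DESeq2's Wald test. The adipocyte list had 1 of 6, the lipid droplet gene Cidec (0.48 ± 0.12).

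Lipid and sugar genes differed in a few members. In fatty acid synthesis, 3 of 20 were lower and 1 higher with furan (20.0%, beside 7.85% of all genes), with a median of -0.21. Srebf1, the transcription factor that drives the pathway, was at 269 to 674 CPM in the furan controls (median 421) and 151 to 230 CPM at furan 2.0 (median 162). It was at 245 to 755 CPM in the 3-methylfuran controls (median 440) and 324 to 526 CPM at 3-methylfuran 1.0 (median 457), so that only the furan groups were apart. Its difference was -1.24 ± 0.35 (edgeR adjusted p = 0.0177). The desaturase gene Fads1 (-1.02 ± 0.20) and the acetyl-CoA carboxylase gene Acacb (-0.90 ± 0.27) were lower as well, and Lpin1 was the higher one. Among the 3 lower genes, all were called with the lowest-dose baseline, and Fads1 alone was called without the 4 rats (-0.82). The list had 2 calls in that fit, 9 without the other 3 and 7 without ME089 alone.

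In glucose metabolism 5 of 28 were called (17.9%, beside 7.85% of all genes), all higher, and 0 of them with the lowest-dose baseline. The count was 1 without the 4 rats, as it was without ME082 alone or ME085 alone, and 10 without the other 3. The hexokinase gene Hk1 (0.86 ± 0.26) rose with furan alone, and the aldolase gene Aldoa (0.51 ± 0.14) rose with both compounds, further with furan. Cholesterol synthesis had 2 lower of 24, Stard4 (-0.57 ± 0.19) and Nsdhl (-0.39 ± 0.10). Bile acid genes had 2 lower of 27, the oxysterol hydroxylase gene Cyp39a1 (-0.38 ± 0.10) and Abcc2. PPAR alpha targets had 1 of 32, Fgf21, and iron handling 1 of 21, Hpx. The shares called were 8.3% (cholesterol), 7.4% (bile acid), 3.1% (PPAR alpha) and 4.8% (iron), near or below that over all genes. Cholesterol, bile acid, PPAR alpha and iron lists had 0, 0, 1 and 0 calls without the 4 rats and 3, 15, 7 and 4 without the other 3. The medians of the PPAR alpha, cholesterol, mitosis, p53 and cholangiocyte lists changed sign between scalings, so they carry no direction.

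Zonation and clock lists gave 1 to 3 calls each. Beside 7.85% of all genes, the shares called were 9.5% (pericentral), 5.0% (periportal) and 14.3% (clock). Lgr5, a receptor gene of the Wnt pathway in pericentral hepatocytes, fell with furan and rose with 3-methylfuran (-1.96 ± 0.55). Lgr5 lay at or below 1.30 CPM in every rat of the comparison. The pericentral list had 2 of 21 called, both lower. The periportal list had 1 of 20, Aldh1b1, a mitochondrial aldehyde dehydrogenase gene, which rose by 1.46 ± 0.25 with 3-methylfuran alone (difference -1.67 ± 0.36). The clock list had 3 of 21, with Usp2 and the kinase gene Csnk1d (0.33 ± 0.08) higher and Clock (-0.29 ± 0.09) lower. Pericentral, periportal and clock lists had 1 call each without the 4 rats and 5, 8 and 3 without the other 3.

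In the NRF2 and electrophile response, a defence against reactive compounds, furan raised 16 of 22 and 3-methylfuran 13. The difference was called for 3 (13.6%, beside 7.85% of all genes). The number was 0 without the 4 rats and 3 without the other 3. Akr1b8 (ENSRNOG00000009734), an aldo-keto reductase, was at 1.26 to 3.38 CPM in the furan controls (median 2.29) and 1.96 to 73.3 CPM at furan 2.0 (median 34.7). It was at 1.2 to 4.57 CPM in the 3-methylfuran controls (median 1.34) and 1.21 to 12.9 CPM at 3-methylfuran 1.0 (median 2.85). At least 1 furan rat stayed inside the control range. Its difference was 2.81 ± 0.72 (edgeR adjusted p = 0.0099), and 1.25 (adjusted p = 0.420) without the 4 rats. Abcc2, the canalicular exporter of conjugates, rose with 3-methylfuran alone (difference -0.59 ± 0.17).

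The other stress lists each gave 2 to 4 calls. Beside 7.85% of all genes, the shares called were 17.6% (heat shock), 12% (ATF4), 7.7% (p53), 23.5% (AP-1) and 23.1% (altered hepatocyte). The p53 share was thus near that over all genes. Heat shock genes were higher in 3 of 17, with the small chaperone gene Hspb1 at 1.72 ± 0.44, the heat shock factor gene Hsf1 at 0.50 ± 0.12 and the cochaperone gene Bag3 at 0.56 ± 0.15. Hspb1 and Hsf1 rose with furan, whereas Bag3 fell with 3-methylfuran. None of these 3 was called without the 4 rats, where Hspb1 was at 0.61, Hsf1 at 0.37 and Bag3 at 0.57 (edgeR adjusted p = 0.548, 0.146 and 0.0708). In the ATF4 and unfolded protein list furan raised 4 and lowered 12 of 25, and 3-methylfuran raised 1 and lowered 18. The difference was higher in 3, Fgf21, the transcription factor gene Atf5 (0.77 ± 0.16) and the degradation factor gene Edem1 (1.04 ± 0.26); the last 2 fell with 3-methylfuran alone. P53 targets were higher in 2 of 26, Ccng1 (0.61 ± 0.17), raised by both compounds, and Plk2 (0.90 ± 0.27), changed in opposite directions. AP-1, Myc and early growth genes were called in 4 of 17, the phosphatase gene Dusp5 (0.85 ± 0.22), Klf10 (1.37 ± 0.42) and Spry4 higher and Myc lower. Altered hepatocyte and oncofetal markers had 3 of 13, with Akr1b8 and the surface glycoprotein gene Cd24 (1.04 ± 0.31) higher and Mest lower. The ATF4, p53, AP-1 and altered hepatocyte lists had 2, 0, 2 and 1 calls without the 4 rats and 5, 6, 7 and 5 without the other 3.

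**Figure D4:**
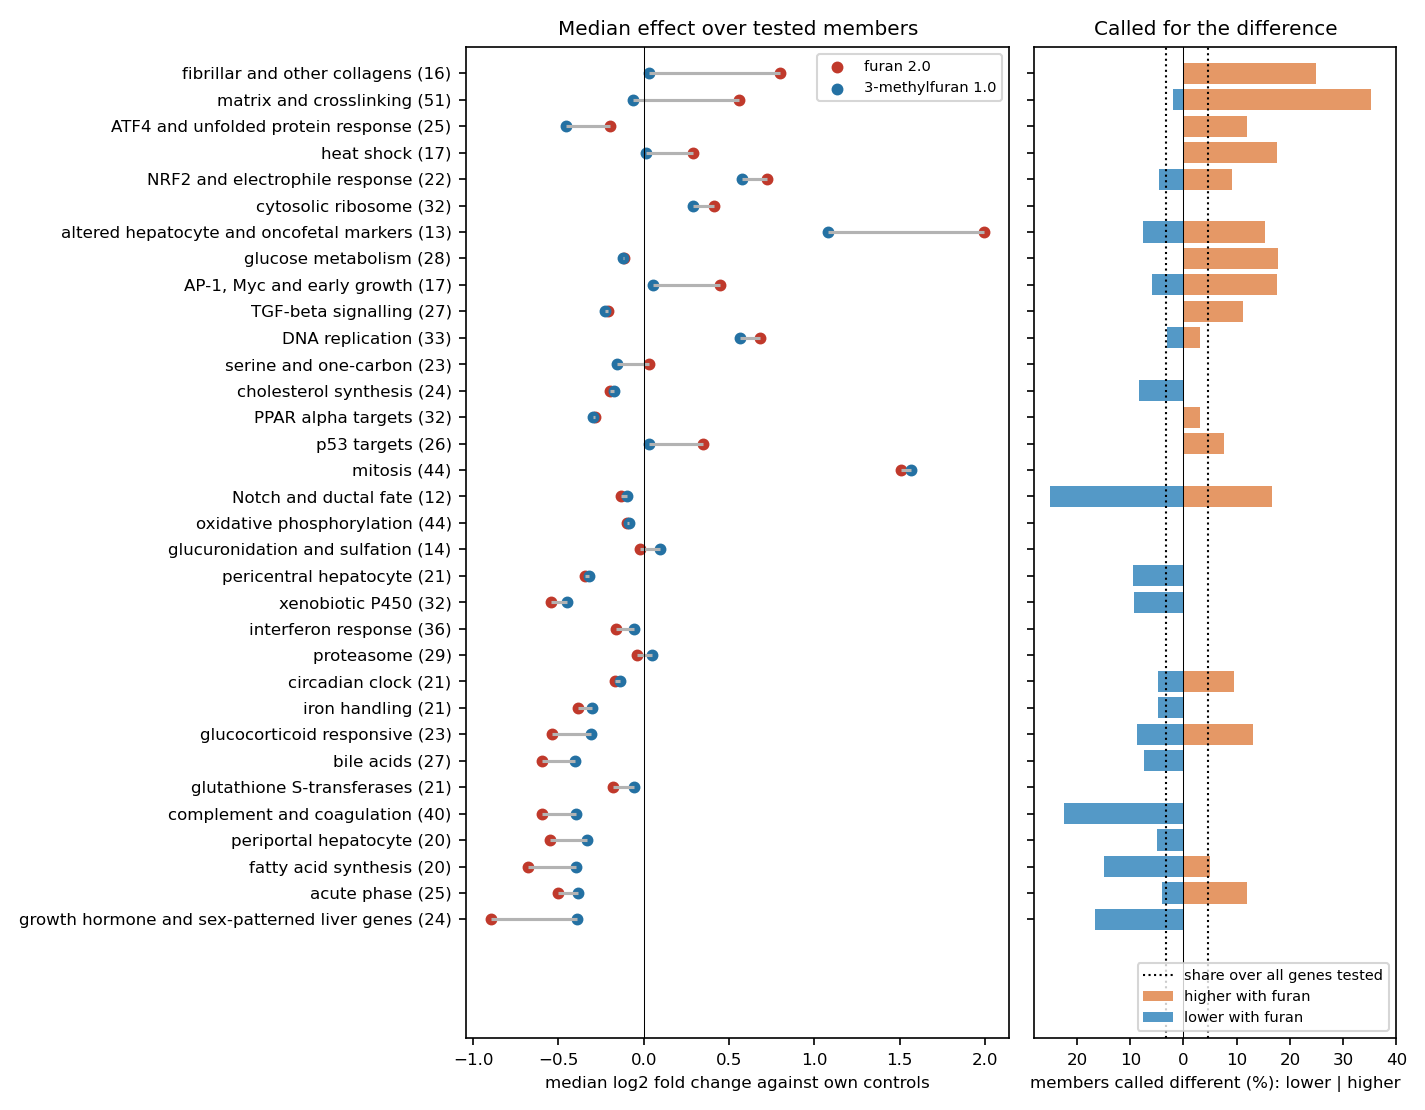
Left, median log2 fold change over the tested members of each of 33 gene lists for furan 2.0 (red) and 3-methylfuran 1.0 (blue), with the number tested in brackets; right, percent of members called for the difference, higher with furan to the right and lower to the left, with dotted lines at the shares over all genes (4.59% and 3.26%). Matrix genes have the longest bar to the right at 35.3% higher, with 2.0% lower, and several lists have no bar.

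Cyp2e1 (ENSRNOG00000012458), the enzyme that activates furan, rose by 0.47 ± 0.15 with 3-methylfuran, and its difference missed the threshold. It was at 2363 to 4223 CPM in the furan controls (median 3062) and 2123 to 4769 CPM at furan 2.0 (median 2552), beside 1812 to 2839 CPM in the 3-methylfuran controls (median 2266) and 2755 to 3739 CPM at 3-methylfuran 1.0 (median 3162). The furan groups overlapped broadly, while 8 of 8 3-methylfuran rats lay above their control mean. The difference of -0.53 ± 0.22 (95% interval -0.96 to -0.10) had an edgeR adjusted p of 0.115. Among 32 xenobiotic P450 genes 3 were called (9.4%, beside 7.85% of all genes). All were lower with furan, Cyp2c12, Cyp2a3 (-0.43 ± 0.12) and Cyp2b3 (-0.40 ± 0.10). The count was 1 without the 4 rats and 10 without the other 3.

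Some genes were moved the same way by both compounds to an unequal extent. Mybl1, a Myb family transcription factor gene, rose by 1.02 ± 0.30 with furan and 2.80 ± 0.33 with 3-methylfuran (difference -1.77 ± 0.45). It lay at 0.967 to 7.84 CPM in the furan controls (median 3.23) and 5.49 to 8.88 CPM at furan 2.0 (median 6.66), and at 0.767 to 1.87 CPM in the 3-methylfuran controls (median 1.33) and 6.5 to 13.5 CPM at 3-methylfuran 1.0 (median 8.0). The collagen family gene Col20a1 (-1.36 ± 0.37), the phospholipase domain gene Plcxd2 (-1.20 ± 0.28) and the retinoid-binding protein gene Rbp7 (-1.15 ± 0.34) rose more with 3-methylfuran in the same way. The NADPH oxidase gene Nox4 fell by 1.41 ± 0.24 and 2.54 ± 0.26 (difference 1.13 ± 0.35) and the lipolysis inhibitor gene G0s2 by 0.96 ± 0.21 and 1.96 ± 0.20 (1.00 ± 0.28). For these genes the larger change came with the compound given at the smaller dose. Wsb1, a ubiquitin ligase adaptor gene, fell further with furan (-0.90 ± 0.29).

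The strongest responses common to the compounds were mostly not separable in size. Both raised 273 genes at least 2-fold, of which the difference was called for 8 and its 95% interval lay inside 1.5-fold in either direction for 15. For the other 250 the interval reached past 1.5-fold without a call, so the size of the difference was not resolved there. Both lowered 101 genes at least 2-fold, with 5 called, 16 inside 1.5-fold and 80 past it. Over all genes 7369 intervals (62%) lay inside 1.5-fold. Gstp1, the placental-form glutathione S-transferase of altered rat hepatocytes, was at 7.04 to 16.6 CPM (median 13.5) in the furan controls and 20.0 to 189 CPM (median 152) at furan 2.0. It was at 7.12 to 22.8 CPM (median 7.34) in the 3-methylfuran controls and 23.4 to 669 CPM (median 61.1) at 3-methylfuran 1.0. The Gstp1 difference was -0.20 ± 0.61 (95% interval -1.41 to 1.02). For Phgdh, the first enzyme of serine synthesis, it was -0.68 ± 0.89 (-2.45 to 1.09). For Aldh1a7, an aldehyde dehydrogenase, it was 1.08 ± 0.79 (-0.49 to 2.66), and for Gpx2, a glutathione peroxidase, 1.66 ± 0.86 (-0.06 to 3.38).

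A few shared responses were bounded closely. Serpina4, the kallistatin gene, fell by 1.26 ± 0.08 with furan and 1.24 ± 0.08 with 3-methylfuran, and the interval of the difference ran from -0.25 to 0.20. It lay at 1020 to 1256 CPM in the furan controls (median 1186) and 357 to 673 CPM at furan 2.0 (median 472), and at 1316 to 1802 CPM in the 3-methylfuran controls (median 1393) and 451 to 767 CPM at 3-methylfuran 1.0 (median 588). The apolipoprotein gene Apon (-0.34 to 0.27), the sulfotransferase gene Sult1c3 (-0.29 to 0.33), the ribonuclease gene Rnase4 (-0.40 to 0.23) and the adaptor gene Shf (-0.30 to 0.28) fell with similarly narrow intervals of the difference. Among the raised genes, Tmem120a had the narrowest interval (0.11 to 0.74), which lay wholly on the furan side and reached past 1.5-fold. Next were the keratin gene Krt18 (-0.42 to 0.28), the phosphatase gene Ptpn13 (-0.48 to 0.27), the thymidylate synthase gene Tyms (-0.47 to 0.29) and the helicase gene Dqx1 (-0.48 to 0.27). Anxa5, an annexin (-0.21 to 0.63), also reached past 1.5-fold on the furan side. For Mug1, a lowered plasma protease inhibitor gene, the interval ran from -0.51 to 0.02.

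In 8 of the 33 gene lists edgeR called 0 members for the difference. DESeq2's Wald test called 2 interferon genes, 1 proteasome gene and 1 serine and one-carbon gene, and 0 in the other 5 lists. Mitosis genes rose with both compounds in 43 of 44, with medians of 1.51 and 1.57, and 0 had an unadjusted p under 0.05 for the difference. Their intervals were wide, and 3 of 44 lay inside 1.5-fold. Oxidative phosphorylation (44 of 44 inside 1.5-fold, 1 at an unadjusted p under 0.05), the proteasome (29 of 29, 2) and the cytosolic ribosome (31 of 32, 12) had nearly all intervals inside 1.5-fold with all rats. Without ME086, ME089 and ME092, 13 oxidative phosphorylation, 6 proteasome and 2 ribosome genes were called. Glutathione S-transferases (12 of 21, 3), glucuronidation and sulfation (11 of 14, 2), serine and one-carbon metabolism (12 of 23, 3) and the interferon response (17 of 36, 6) were bounded in part, with 4, 3, 2 and 5 calls in that same fit. DNA replication had 2 called of 33 (6.1%, beside 7.85% of all genes), the helicase gene Mcm7 (0.70 ± 0.14) among them. TGF-beta signalling had 3 of 27 higher (11.1%), among them Inhbe (0.76 ± 0.23) and Ltbp2. These lists had 1 and 0 calls without the 4 rats and 2 and 5 without the other 3.

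The 3-methylfuran dose lies between furan 0.5 and furan 2.0, and the furan 0.5 values stand beside those above with the same controls and the same 3-methylfuran rats. Taken at furan 0.5, the difference was 5.11 ± 0.75 for Zbtb16, 2.14 ± 0.28 for Klf13, 1.88 ± 0.38 for Adamtsl2 and 1.88 ± 0.31 for Epha2. It was -3.05 ± 0.66 for Myc, -2.13 ± 0.52 for Hhex, -3.87 ± 0.53 for Cyp2c12 and -0.83 ± 0.16 for Magi3. These 8 genes passed the test at either furan dose. Of the 116 named genes, 99 were called at furan 2.0, and 45 of these were not called at furan 0.5. A further 14 were called at furan 0.5 only. For Col1a1 it was 1.57 ± 0.74 (edgeR adjusted p = 0.114), for Akr1b8 -0.40 ± 0.74 (0.746) and for Hspb1 0.37 ± 0.44 (0.591), none of them called. For genes that both top doses moved, the furan 0.5 difference lay on the side of 3-methylfuran, at -3.15 ± 0.63 for Gstp1, -3.50 ± 0.91 for Phgdh, -1.08 ± 0.19 for Ptpn13 and 0.95 ± 0.11 for the lowered gene Serpina4.

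Which genes were called depended on which rats and controls were used. Of the 933 genes, 472 were called in every one of 31 fits that left out 1 rat, 492 under all 8 changes of scaling, filter, tool and sample set, 236 with the lowest-dose groups as baseline and 150 without rats ME081, ME082, ME083 and ME085. All of the first 3 conditions were met by 158 genes, 78 higher and 80 lower, and 56 of those were also called without the 4 rats. Among the named genes these 56 included Tsx, Myc, Hhex, Cyp2c12, Vgll4, Mest, Magi3, Fads1, Tent2, Dennd4a and Kdm6a on the lower side, and Adamtsl2, Epha2, Fmo2, Spry4 and Atf5 on the higher side.

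**Figure D5:**
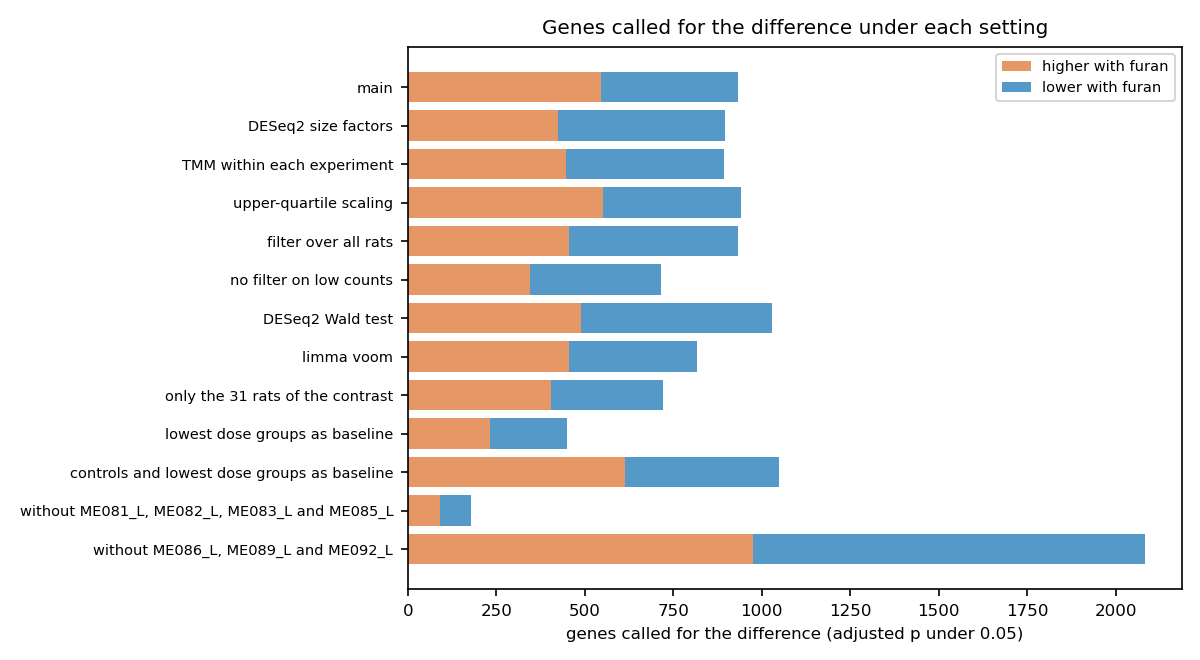
Number of genes called for the difference (x axis, adjusted p under 0.05) with TMM scaling and all rats (main) and 12 other settings, split into higher (orange) and lower (blue) with furan. The count is 933 in the top bar, 178 without rats ME081, ME082, ME083 and ME085, 451 with the lowest-dose groups as baseline and 2083 without rats ME086, ME089 and ME092.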

How the data were processed

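The authors deposited counts of reads per gene and sequencing run for 38 rats of the furan experiment (76 runs) and 32 of the 3-methylfuran experiment (96 runs). Per the submitters' processing notes, the genome build was Rnor 6.0 and the tools included DESeq2 1.26.0, featureCounts 2.0.0 and STAR 2.7.1a. No source used here states the strand setting. The authors' deposited comparison tables give a fold against the controls, signed for furan and a linear ratio for 3-methylfuran, with an adjusted p-value; no value of theirs is printed. Array data were not analysed here.

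Runs were summed per rat. Between runs of a rat, chi-square over degrees of freedom of the counts was 1.01 to 1.07 (furan) and 1.0 to 1.04 (3-methylfuran), and between rats at least 7.17 and 9.56. Genes passing edgeR's filterByExpr (minimum count 10) in each experiment were fitted over all 70 rats with 1 coefficient for each of 9 groups (edgeR 4.0.16, TMM, robust quasi-likelihood F test, R 4.3.3), and p-values were adjusted over 11885 genes by the Benjamini-Hochberg method. The script was tested on simulated counts for the 31 rats alone, not for the fit over 70. There it called 77 of 100 2-fold and 96 of 100 4-fold changes in the right direction, with 18 false calls. Each SE follows from the log2 value and its F statistic. CPM values (counts scaled to a common library total) use the TMM factors, and depth limits values near 0. Counting strand is unknown, so overlapping antisense genes cannot be told apart.

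The members and lists were chosen with earlier results of these data known. Named genes were the largest, the most significant, the opposite, the unequal and the most closely shared changes, a set fixed by name, and up to 4 called members of each list (116 genes, beside some that are not reported here); Errfi1, Eln and Lgr5 fall outside that rule and were chosen after their values were seen. Alternatives were other scalings, filters, tools (DESeq2 1.42.0, limma 3.58.1), baselines and sets of rats. Promoter sequences came from RefSeq (GRCr8) and were matched by symbol.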

Additional observations from a re-analysis of the deposited data

Results flagged for a closer look

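In 15 of 220 groups of named genes tested, 1 rat stood apart from the rest of its group by Dixon's criterion; chance gives about 1 in 20. Each value is in CPM with the nearest rat of the group after it. Among furan controls these were Fgf21 in MC003 at 10.21 (5.54) and Mybl1 in MC004 at 7.84 (4.16). Among furan 2.0 rats, ME086 was low for Tmem120a at 20.66 (33.2) and Tyms at 7.34 (11.2), and high for Cyp2e1 at 4769 (3183). Among 3-methylfuran controls, Adamtsl2 in MC507 was low at 7.12 (9.14), while Cpxm1 in MC508 at 1.34 (0.878), Rbp7 in MC503 at 1.58 (0.902) and Wsb1 in MC512 at 49.83 (30.6) were high. At 3-methylfuran 1.0, ME587 was high for Myc at 68.91 (34.6) and Gstp1 at 669.3 (110), ME583 for Anxa5 at 33.57 (23.8) and Mest at 5.84 (4.03), ME586 for Fgf21 at 13.78 (7.75) and ME584 for Nox4 at 10.3 (4.99).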

How the results depend on the processing

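The count of 933 called differences was 451 with the lowest-dose baseline (231 higher, 220 lower, 55 opposite), 178 without rats ME081, ME082, ME083 and ME085 (92 higher, 86 lower, 25 opposite) and 2083 without rats ME086, ME089 and ME092 (974 higher, 1109 lower). With no filter on low counts 344 were higher. Furan 2.0 changed 2684 genes without the first 4 rats. Collagen calls were 2 by limma voom, 2 with the lowest-dose baseline, 0 without the 4 rats and 10 without the other 3; matrix calls were 8, 8, 2 and 30 in the same order. Complement calls were 4 with only the 31 rats, 2 with the lowest-dose baseline, 0 without the 4 rats and 31 without the other 3. Signs turned for Lpin1 (-0.56) with the lowest-dose baseline, and for Col5a2 (-0.24), Lox (-0.58) and Timp1 (-0.069) without the 4 rats. The cause was not tested. The fit without the 4 rats keeps fewer animals, so its counts do not tell lost calls through fewer rats from changed sizes.

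Leaving out 1 rat at a time gave 564 (without ME082) to 1264 (without ME086) called differences, 292 to 630 higher, 272 to 668 lower and 65 to 105 opposite. The furan 2.0 effect ranged from 5260 to 6144 genes and the 3-methylfuran effect from 4895 to 5292. Collagen calls ranged from 3 to 6, matrix calls from 10 to 22 and complement calls from 4 to 18. No scaling moved the median difference of all genes by over 0.1 on the log2 scale. No paired analysis was possible because the rat numbers of the groups are all different.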
